A study of Mus musculus with 18 samples.

Results

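The RNA-seq libraries compared here are the 3 of WT set 5 and the 3 of WT set 3, from wild-type mouse CD4 T cells. They are 6 of the 18 libraries of the series. The members were chosen by their labels alone, and all 12547 genes of the deposited expression table entered the comparison. WT set 5 and WT set 3 are wild-type (WT) mouse CD4 T cells in Th1 culture. The other libraries are WT set 6 and the Id3-knockout (KO) sets 5, 6 and 3, with 3 libraries in each set. All cells began as naive CD4 T cells. They were stimulated with microbeads that carry antibodies to CD3 and CD28. The Th1 medium was IMDM with 10% serum, 10 ng/ml IL-2, 10 ng/ml IL-12 and 10 ug/ml of an antibody that blocks IL-4. What the set numbers stand for is not explained in the labels. In the names of the contrasts in the authors' deposited table, set 3 goes with the number 24 and sets 5 and 6 with the number 96, without a unit, so set 5 is read here as the later stage of the culture. Any difference in handling between the sets cannot be told apart from the stage. Nothing in the labels says whether the 3 libraries of a set came from separate mice or cultures. The p-values rest on the spread between libraries within sets, pooled over all 18 libraries, the KO sets included. That spread may be technical.

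T helper 1 (Th1) cells are the CD4 T cells that answer intracellular microbes. Stimulation through the T cell receptor and CD28 drives a naive cell to grow and to make IL-2 and its receptor, and IL-12, acting through STAT4, turns on the transcription factor T-bet (Tbx21) and interferon gamma. Activated T cells enlarge, build ribosomes and raise their metabolism before they divide, and dividing effector cells then acquire cytotoxic granules and the receptors for inflamed tissue, such as CXCR3.

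The values are log2 expression values per gene and library, on which a difference of 1 is a factor of 2. Their sequencing depth is unknown. Within each set the sorted values were the same in the 3 libraries for nearly all ranks (97.1% in WT set 5 and 97.0% in WT set 3), with a median of 9.18 in WT set 5 and 9.21 in WT set 3. The sources used here do not give the step by which the libraries of a set came to share values, and its effect on the spread between replicates was not tested. Each library has a lowest value, between 1.03 and 1.11, here called the floor, that 268 to 350 genes hold in the 6 libraries. For a gene that all 3 libraries of a set list at this lowest value, only levels are given, and no fold. Where 1 or 2 libraries of a set are at that value, the direction is a measurement but the size of the difference is uncertain. Id3, the gene targeted in the KO cells, stood at 9.53, 8.92 and 8.85 in WT set 5 libraries and 10.08, 9.74 and 9.60 in WT set 3 libraries, against means of 3.48 in KO set 5 and 3.05 in KO set 3. The WT libraries lay above the KO libraries, as their labels have it, and Id3 did not pass the test between the WT sets (log2 difference -0.70 ± 0.89 SE, adjusted p = 0.500), although it did where the WT libraries were fitted alone. The SE pools the spread of all 18 libraries, and Id3 stood at 2.02, 5.63 and 2.80 in KO set 5 libraries.

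The third library of WT set 3 stood apart from the other 2. In a principal component analysis of the 6 libraries, the first component took 82.2% of the variance and placed the WT set 5 libraries at 72.9, 72.0 and 78.6 and the WT set 3 libraries at -79.6, -79.2 and -64.7. The sets were far apart, with replicate 3 of set 3 the nearest to set 5. It was the WT set 3 library closest to the WT set 5 mean for 4733 of the genes that passed the test (55.8%), against 1897 for replicate 1 and 1849 for replicate 2. Without that library 8186 genes passed in all, 7978 of them also with it and in the same direction. The lists differed in this: it was the nearest for 51 of 54 ribosome biogenesis genes, 37 of 47 translation factors and 23 of 25 heat shock genes. For mitosis genes it was the nearest for 4 of 50, and for CDK inhibitors for 2 of 8. The number of called members of a gene list in 1 direction moved by at most 4 without it. Where leaving out this or another library of the 2 sets moved a list's count by over 1.5 times, the count without it is given beside the list.

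Markers of the labelled cell type were expressed in both sets. Cd4 stood at 12.04, 11.85 and 12.08 in WT set 5 libraries, against 12.46, 12.21 and 12.33 in WT set 3 libraries, and Cd3e at 13.28, 13.53 and 13.61 in WT set 5 libraries, against 12.80, 12.77 and 12.90 in WT set 3 libraries. Markers of other cells were also measured and moved with the sets. Of 10 natural killer (NK) cell markers, 8 were lower in WT set 5 and none higher, and their summed log2 level lay between 8.69 and 9.16 in WT set 5 and between 10.35 and 11.03 in WT set 3. Ncr1 and Klra8, NK cell receptors, were at the floor in all 3 WT set 5 libraries. Both CD8 markers were lower (Cd8a 2.80, 6.76 and 5.72 in WT set 5 libraries, against 8.69, 9.17 and 8.66 in WT set 3 libraries), as were 4 of 7 erythroid markers and 5 of 6 dendritic cell markers. The erythroid markers' summed level lay between 6.32 and 6.53 in WT set 5 and between 8.89 and 9.59 in WT set 3. Of 9 B cell markers, 3 were lower (1 without WT set 3 replicate 3) and 2 higher (1 without WT set 3 replicate 2 or WT set 5 replicate 1 or 2), with a sum between 10.33 and 10.47 in WT set 5 and between 6.49 and 7.90 in WT set 3 that rests on Fcmr (10.28, 10.32 and 10.41 in WT set 5 libraries, against 5.30, 3.68 and 5.85 in WT set 3 libraries), a gene that T cells express too. Of 6 macrophage and monocyte markers 4 were higher and 1 lower. Of 7 granulocyte and mast cell markers 2 were higher and 1 lower, of 3 stromal and endothelial markers 1 was higher (none without WT set 3 replicate 1) and 1 lower (none without WT set 3 replicate 1 or 3 or WT set 5 replicate 2 or 3), and all 3 gamma delta and NKT cell markers were lower (1 without WT set 3 replicate 2 or without WT set 5 replicate 1). In bulk RNA, fewer cells of a type and less RNA per cell cannot be told apart, and the part of these cells in the results below was not tested.

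Most genes differed between the WT sets. By limma's moderated test with Benjamini-Hochberg adjustment over all 12547 genes, 8479 genes (67.6%) passed an adjusted p of 0.05. Of these, 3672 (29.3% of all genes) were higher and 4807 (38.3%) were lower in WT set 5. Against this background, a gene list in which a majority of members passed is the usual case, so the direction and the size carry the information. The median difference over all genes was -0.12, and 3785 genes (30.2%) passed with a difference of at least 1. The 3 WT set 5 values lay wholly above or below the 3 WT set 3 values for 9104 genes (72.6%). The plot of called members per gene list shows lists that moved almost entirely one way beside lists that split.

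**Figure D1:**
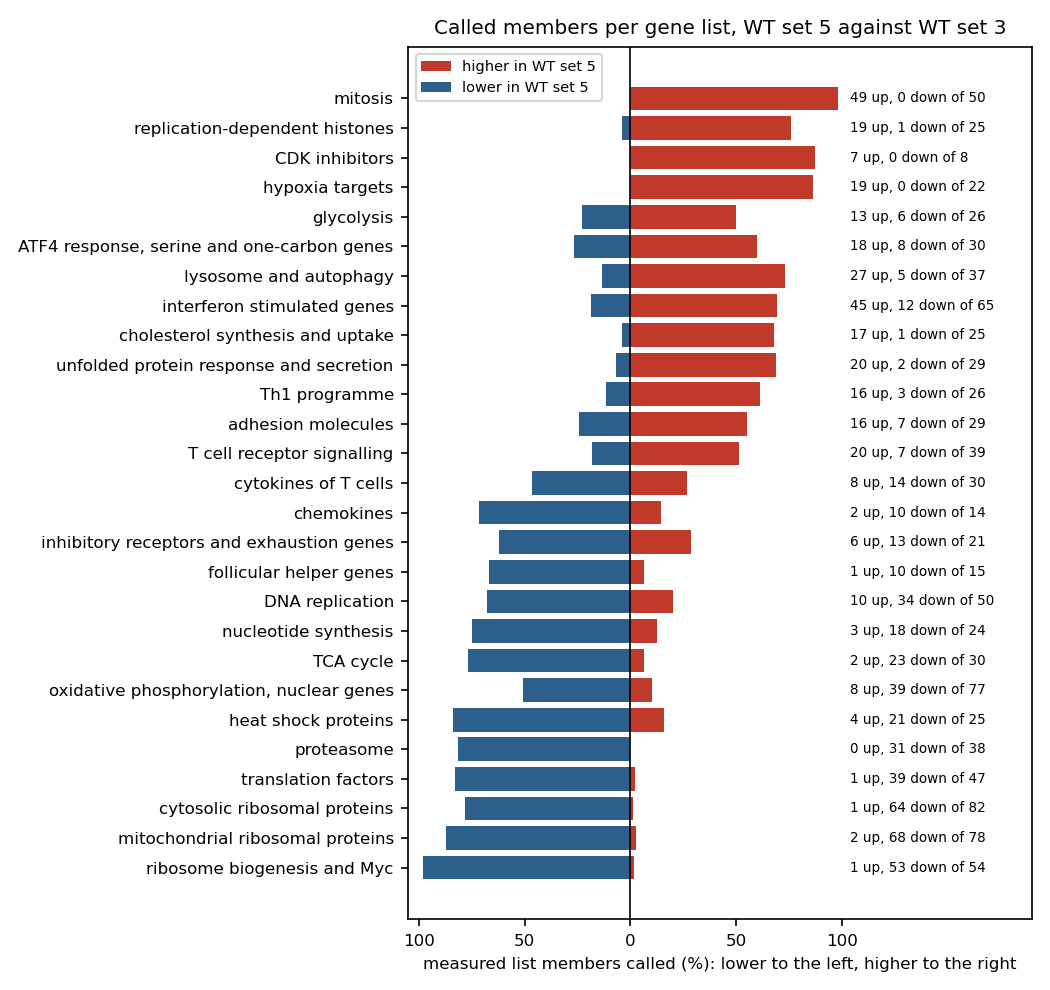
Share of the measured members of each gene list that passed the test between WT set 5 and WT set 3, in percent, with members higher in WT set 5 to the right and members lower in WT set 5 to the left; the counts stand beside the bars. Mitosis genes (49 of 50 higher) and ribosome biogenesis genes (53 of 54 lower) lie at opposite ends.

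Genes of mitosis were higher in WT set 5 almost without exception. Of 50 measured members, 49 rose and none fell, with a median difference of 2.55, and the count was the same without WT set 3 replicate 3. Mybl2, a transcription factor of the cell cycle, was the member that did not pass (difference 0.25, adjusted p = 0.136). Ccnb2, a B-type cyclin that activates the mitotic kinase Cdk1, stood at 12.38, 12.20 and 12.29 in WT set 5 libraries, against 6.87, 7.35 and 7.23 in WT set 3 libraries. Ube2c, which helps to tag mitotic cyclins for destruction, stood at 13.44, 13.26 and 13.31 in WT set 5 libraries, against 9.17, 9.35 and 9.03 in WT set 3 libraries. The groups did not overlap for either gene, with differences of 5.14 ± 0.30 for Ccnb2 and 4.15 ± 0.21 for Ube2c (SE; adjusted p = 6.73e-10 and 1.93e-10). Cenpa, the histone variant of centromeres, differed by 3.998, Mki67, the proliferation antigen Ki-67, by 3.37, the phosphatase gene Cdc25b by 3.06 and the kinesin gene Kif18b by 2.85. Cdk1 itself stood at 13.37, 12.95 and 13.12 in WT set 5 libraries, against 11.67, 11.74 and 11.65 in WT set 3 libraries. It was higher in every WT set 5 library, with a smaller difference of 1.46 (adjusted p = 1.35e-06).

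The Ccnb2 promoter is shown because mitosis genes as a group carry CCAAT boxes and the cell cycle element TTTGAA near their start, elements that are known to time transcription to late cell cycle phases. The window spans 250 bases before to 50 bases after the annotated start, from RefSeq on the mouse build GRCm38.p6 (chr9:70421505-70421804, minus strand), written on the gene's strand from 5′ to 3′. Capitals mark the matches to TTTGAA and CCAAT.
Ccnb2: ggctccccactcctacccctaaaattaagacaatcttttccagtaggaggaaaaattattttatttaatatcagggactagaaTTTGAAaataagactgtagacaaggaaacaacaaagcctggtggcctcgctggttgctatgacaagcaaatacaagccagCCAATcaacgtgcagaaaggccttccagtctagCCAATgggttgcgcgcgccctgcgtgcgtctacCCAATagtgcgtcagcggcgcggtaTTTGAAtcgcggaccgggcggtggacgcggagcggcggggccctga
The window held 2 matches to TTTGAA and 3 to CCAAT, none overlapping. RefSeq windows were matched for 40 of the 50 measured mitosis genes (42 windows). On either strand, TTTGAA stood in 73.8% of these windows, against 17.9% of all 32851 windows of the table. CCAAT stood in 76.2%, against 37.4%. For the DNA replication genes, described next, TTTGAA stood in 16.3% of 49 windows and CCAAT in 55.1%, so CCAAT was frequent in both lists. A match is a description of the sequence and not a binding site.

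DNA replication genes mostly fell. Of 50 members, 10 rose and 34 fell, with a median difference of -0.39. The helicase subunit genes Mcm2 to Mcm7 all fell, by between 0.39 (Mcm5) and 0.95 (Mcm6). Pold2, a subunit of DNA polymerase delta, stood at 10.65, 10.75 and 10.61 in WT set 5 libraries, against 11.81, 11.75 and 11.73 in WT set 3 libraries. Its groups were apart by -1.09 ± 0.07 (SE; adjusted p = 2.71e-09), and Rfc3, a subunit of the clamp loader, differed by -1.04. Among the members that rose were Rrm2, the regulated subunit of ribonucleotide reductase (1.78), the checkpoint mediator Clspn (1.06), the kinase regulator Dbf4 (0.80) and thymidylate synthase Tyms (0.78). Pcna, the sliding clamp, stood at 15.44, 15.45 and 15.37 in WT set 5 libraries, against 15.28, 15.26 and 15.27 in WT set 3 libraries, and did not pass (0.15, adjusted p = 0.0539), although it did where libraries were centred on their medians.

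Genes that act in G1 moved both ways. Of 21 members of the list of G1 cyclins, their kinases and E2F factors, 9 rose and 10 fell. The E2F genes E2f2, E2f7 and E2f8 rose by 2.26, 2.27 and 2.03; E2f7 and E2f8 encode repressors of the family. Ccnd2, a D-type cyclin induced by growth signals, stood at 11.24, 11.37 and 11.34 in WT set 5 libraries, against 13.48, 13.47 and 13.49 in WT set 3 libraries. All 3 WT set 5 values were lower, with a difference of -2.16 ± 0.09 (SE; adjusted p = 3.41e-11), and its kinase partner gene Cdk4 differed by -0.57. Cdc25a, a phosphatase that activates Cdk2, differed by -1.03.

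Inhibitors of cyclin-dependent kinases rose beside the mitosis genes. Of 8 measured members 7 rose and none fell, with a median difference of 3.10. Cdkn2a, which encodes the inhibitor p16Ink4a and, from another reading frame, the p53 activator p19Arf, stood at 9.85, 9.68 and 9.75 in WT set 5 libraries, against 1.11, 3.53 and 2.54 in WT set 3 libraries. The WT set 5 values were all far above the WT set 3 values, of which replicate 1 was at the lowest value, and the difference was 7.37 ± 0.44 (SE; adjusted p = 9.39e-10). Cdkn1a, the inhibitor p21 and a target of p53, stood at 12.61, 12.52 and 12.67 in WT set 5 libraries, against 9.31, 9.26 and 8.73 in WT set 3 libraries, apart by 3.50. Cdkn2b, Cdkn2c, Cdkn2d and Cdkn1b rose by 4.47, 2.71, 2.66 and 1.69. Cdkn3, a phosphatase that acts on cyclin-dependent kinases, rose by 5.47, and Cdkn1c did not pass (-0.34, adjusted p = 0.430).

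Histone genes that cells transcribe during DNA synthesis were also higher. Of 25 replication-dependent histone genes, 19 rose and 1 fell, with a median difference of 1.53; without WT set 3 replicate 3 the counts were 17 and 0, and without WT set 5 replicate 1 none fell. The linker histone gene H1f2 stood at 9.04, 9.28 and 9.39 in WT set 5 libraries, against 7.01, 6.63 and 6.91 in WT set 3 libraries, H2bc4 at 8.42, 8.18 and 8.50 in WT set 5 libraries, against 6.64, 5.71 and 5.99 in WT set 3 libraries. Per the labels the RNA was selected by its poly(A) tail, which most transcripts of these genes lack, so these values cover only their polyadenylated share. The members are close copies of each other, and the authors' counting could split reads between them.

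**Figure D2:**
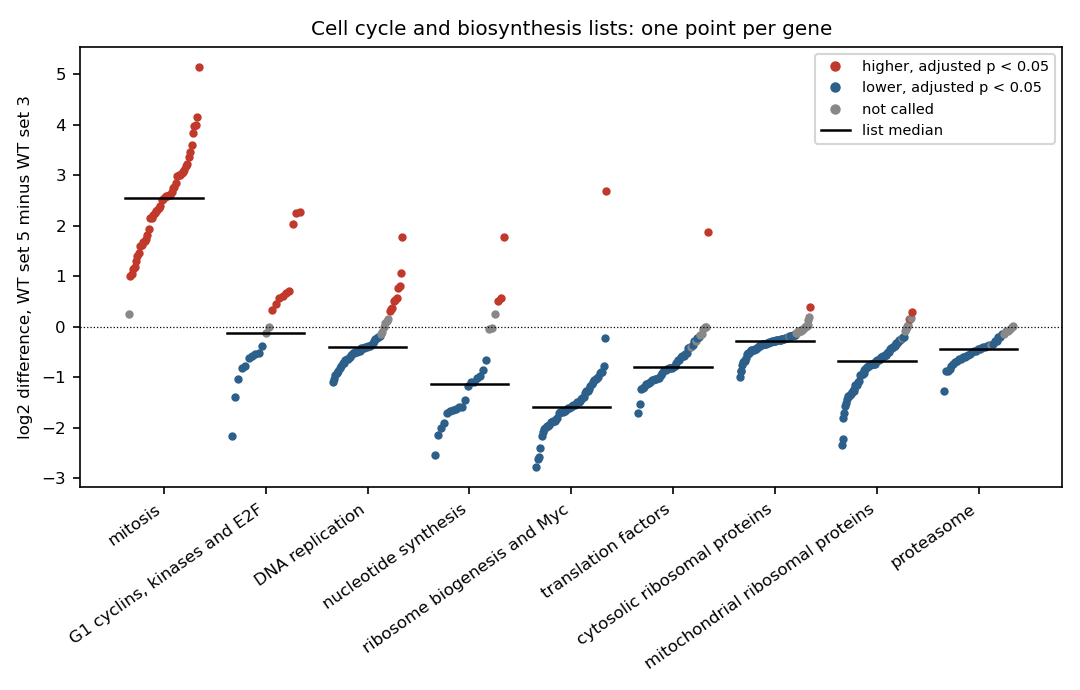
Log2 difference, WT set 5 minus WT set 3, of each measured gene in 9 lists of the cell cycle and biosynthesis, sorted within each list; red and blue points passed the test, grey points did not, and the bar is the list median. Mitosis genes lie above 0 with a median of 2.55, and ribosome biogenesis genes lie below it with a median of -1.58.

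Ribosome biogenesis had the highest share of members that fell among the 54 gene lists. Of 54 genes of ribosome assembly, RNA polymerase I and the Myc network, 53 fell and 1 rose, with a median difference of -1.58, and the count was the same without WT set 3 replicate 3. Rrp12, a factor for export of ribosomal subunits, stood at 8.44, 8.45 and 8.36 in WT set 5 libraries, against 11.21, 11.36 and 11.02 in WT set 3 libraries. Polr1b, the second largest subunit of RNA polymerase I, stood at 9.68, 9.40 and 9.13 in WT set 5 libraries, against 12.05, 12.19 and 11.84 in WT set 3 libraries. Neither gene's groups overlapped, with differences of -2.78 ± 0.13 and -2.62 ± 0.20 (SE; adjusted p = 9.83e-11 and 1.09e-08). The abundant nucleolar proteins followed, with Npm1 at -1.61, Ncl at -1.57 and Fbl at -1.68 (log2 difference). Myc, the transcription factor that drives growth after T cell activation, stood at 12.17, 12.64 and 12.55 in WT set 5 libraries, against 13.39, 13.32 and 13.75 in WT set 3 libraries, a difference of -1.03 (adjusted p = 0.000253). The exception that rose was Mycn, a relative of Myc, at 8.51, 8.64 and 8.63 in WT set 5 libraries, against 5.58, 6.32 and 5.80 in WT set 3 libraries; its difference was 2.70 ± 0.18 (SE; adjusted p = 2.26e-09). The E-box CACGTG, the letters that Myc binds, stood in 21.2% of 52 promoter windows of 48 of these genes, against 7.15% of all windows.

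The machinery of translation fell less steeply. Of 47 translation factors 39 fell and 1 rose (median -0.79), and of 22 genes for aminoacyl-tRNA synthetases and their partners 14 fell and 2 rose (median -0.60). The translation factor list's rise was Eif4ebp1, which encodes an inhibitor of cap-dependent translation that mTORC1 switches off, at 11.36, 11.37 and 11.27 in WT set 5 libraries, against 9.27, 9.38 and 9.74 in WT set 3 libraries. All 3 WT set 5 values were higher, with a difference of 1.87 ± 0.14 (SE; adjusted p = 1.00e-08). Of 82 cytosolic ribosomal protein genes 64 fell (60 without WT set 3 replicate 3) and 1 rose, with a median of -0.27, against -0.12 over all genes. Many of these have near-identical processed copies in the genome, so single values are uncertain. Of 78 mitochondrial ribosomal protein genes 68 fell and 2 rose (none without WT set 3 replicate 2 or 3 or WT set 5 replicate 1, and 1 without WT set 3 replicate 1 or WT set 5 replicate 2), with a median of -0.67.

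Chaperones and the proteasome fell together with translation. All 25 measured heat shock proteins, chaperonins and partners passed, 21 of them lower and 4 higher. Hspd1, the mitochondrial chaperonin, stood at 13.47, 13.39 and 13.20 in WT set 5 libraries, against 15.76, 15.73 and 15.34 in WT set 3 libraries, and its partner Hspe1 at 14.51, 14.31 and 14.23 in WT set 5 libraries, against 16.28, 16.23 and 15.95 in WT set 3 libraries. Their differences were -2.26 ± 0.12 and -1.81 ± 0.10 (SE; adjusted p = 3.20e-10 and 5.59e-10). The 7 measured subunit genes of the cytosolic chaperonin named Cct all fell, and its subunit gene Tcp1 differed by -0.64. The heat-inducible genes Hspa1a and Hspa1b rose by 2.86 and 2.54, but these are near-identical copies whose reads could be split, so each value is uncertain; Dnajb1, a partner of Hsp70, rose by 1.05. Of 38 proteasome genes 31 fell and none rose (median -0.44), with Psme3, an activator of the nuclear proteasome, at -1.28.

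Nucleotide synthesis and the tricarboxylic acid (TCA) cycle were lower. Of 24 genes of nucleotide synthesis 18 fell and 3 rose, with a median of -1.13. Cad, the enzyme that starts pyrimidine synthesis, stood at 10.46, 10.36 and 10.29 in WT set 5 libraries, against 12.41, 12.55 and 12.17 in WT set 3 libraries, and Ppat, which starts purine synthesis, at 10.51, 10.48 and 10.20 in WT set 5 libraries, against 12.18, 12.12 and 12.01 in WT set 3 libraries. The differences were -2.005 ± 0.14 and -1.71 ± 0.11 (SE; adjusted p = 4.69e-09 and 2.56e-09), without overlap. The members that rose, Rrm2, Rrm1 and Tk1, make or salvage deoxynucleotides and belong to the DNA replication list too. Of 10 genes of the pentose phosphate pathway 4 fell and none rose (1 without WT set 5 replicate 3), led by Prps2 at -1.23, which makes the ribose donor of nucleotides. Of 30 TCA cycle genes 23 fell and 2 rose. The members that rose were Pcx, which feeds the cycle from pyruvate (3.52), and the cytosolic enzyme gene Idh1 (2.10). Of 77 nuclear genes of oxidative phosphorylation 39 fell (36 without WT set 3 replicate 3) and 8 rose (median -0.25), and of 13 mitochondrially encoded genes 8 fell (5 without WT set 3 replicate 2) and 1 rose (median -0.33).

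Targets of hypoxia-inducible factor rose in WT set 5. Of 22 measured targets 19 rose and none fell, with a median difference of 1.85. Vegfa, the vascular growth factor, stood at 10.38, 10.22 and 10.46 in WT set 5 libraries, against 7.19, 7.05 and 7.13 in WT set 3 libraries. The groups were tight and apart by 3.23 ± 0.12 (SE; adjusted p = 2.11e-11). P4ha2, a collagen prolyl hydroxylase, stood at 11.01, 10.94 and 11.19 in WT set 5 libraries, against 5.10, 4.96 and 7.63 in WT set 3 libraries, and Bnip3, a receptor for autophagy of mitochondria, at 13.90, 13.87 and 14.06 in WT set 5 libraries, against 9.63, 10.13 and 12.25 in WT set 3 libraries. For both, WT set 3 replicate 3 lay well above its 2 partners and still below WT set 5. Their differences were 5.15 ± 0.70 and 3.27 ± 0.59 (SE; adjusted p = 6.75e-06 and 0.000122), and 6.02 and 4.06 without that library. Replicate 3 was the WT set 3 library nearest to WT set 5 for 16 of the 22 targets, and without it 20 passed. Hif1a itself, whose protein is controlled mainly after translation, stood at 14.002, 14.09 and 14.19 in WT set 5 libraries, against 13.90, 14.17 and 14.54 in WT set 3 libraries, and did not pass (adjusted p = 0.609).

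The P4ha2 promoter is shown because its window holds the core of the hypoxia response element, ACGTG, which hypoxia-inducible factor binds. It lies at chr11:54100674-54100973 on the plus strand (RefSeq, GRCm38.p6, 250 bases before to 50 after the start, 5′ to 3′), with the matches in capitals.
P4ha2: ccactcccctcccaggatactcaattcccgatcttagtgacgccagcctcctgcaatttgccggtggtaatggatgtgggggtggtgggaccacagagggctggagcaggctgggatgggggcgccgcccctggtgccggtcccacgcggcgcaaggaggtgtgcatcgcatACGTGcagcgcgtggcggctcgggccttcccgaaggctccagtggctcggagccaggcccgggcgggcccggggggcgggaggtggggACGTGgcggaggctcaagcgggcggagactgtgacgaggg
There were 2 matches. On either strand ACGTG stood in 53.6% of 28 windows of 19 of the 22 hypoxia targets, in 51.3% of 39 windows of the glycolysis genes and in 19.6% of all windows. Every CACGTG is also an ACGTG, and CACGTG stood in 10.7% of the hypoxia target windows.

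Glycolysis genes rose in part. Of 26 members 13 rose and 6 fell, with a median of 0.46. The glucose transporter gene Slc2a1 stood at 12.76, 12.83 and 12.87 in WT set 5 libraries, against 10.53, 10.58 and 10.61 in WT set 3 libraries, and Slc2a3 at 12.84, 12.76 and 13.09 in WT set 5 libraries, against 9.69, 9.69 and 9.83 in WT set 3 libraries. The groups did not overlap, with differences of 2.25 ± 0.11 and 3.16 ± 0.25 (SE; adjusted p = 1.42e-10 and 1.81e-08). Slc16a3, the exporter of lactate, stood at 13.33, 13.34 and 13.47 in WT set 5 libraries, against 8.40, 9.50 and 11.32 in WT set 3 libraries, and the aldolase gene Aldoc at 11.41, 11.19 and 11.58 in WT set 5 libraries, against 5.87, 6.07 and 8.77 in WT set 3 libraries, again with replicate 3 of WT set 3 the nearest to WT set 5. Gapdh rose by 0.49, while Hk2, the inducible hexokinase, fell by 0.46 and Ldhb, a lactate dehydrogenase subunit, by 1.64. Ldha did not pass (-0.07, adjusted p = 0.706).

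**Figure D3:**
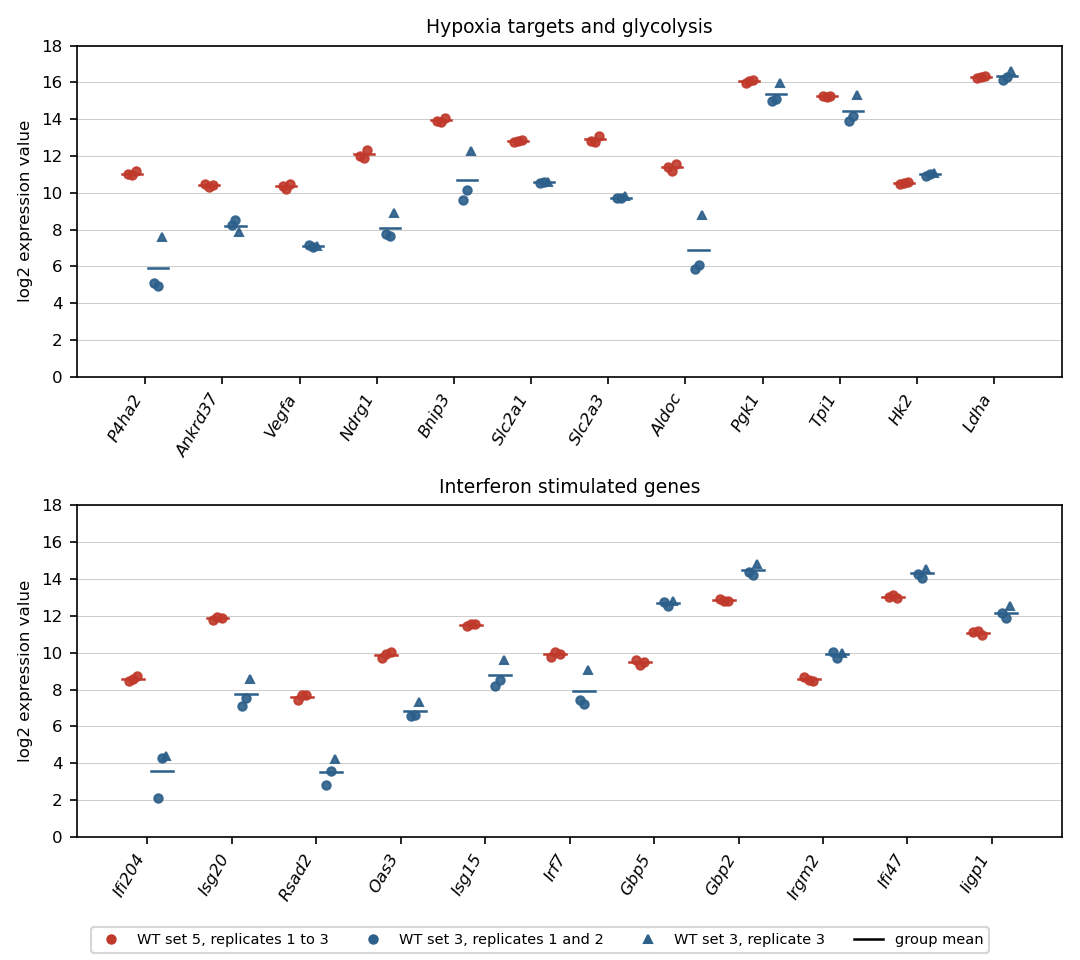
Log2 expression values of hypoxia and glycolysis genes (top) and interferon stimulated genes (bottom) in each library, with WT set 5 in red on the left of each gene and WT set 3 in blue on the right; bars are group means, and the triangle is WT set 3 replicate 3. The triangle lies above its partners for P4ha2 and Isg15, and the Gbp and Irgm genes lie lower in WT set 5.

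Genes of the ATF4 response and of serine and one-carbon metabolism rose more often than they fell. Of 30 members of the list of ATF4 targets, serine and one-carbon genes, 18 rose and 8 fell. Nupr1, a stress-induced chromatin protein, stood at 9.47, 9.22 and 9.29 in WT set 5 libraries, against 2.36, 1.05 and 1.04 in WT set 3 libraries. Trib3, a pseudokinase induced by ATF4, stood at 11.05, 10.81 and 10.83 in WT set 5 libraries, against 6.31, 6.61 and 7.07 in WT set 3 libraries. The difference of Nupr1, 7.85 ± 0.51, was among the largest in the table, and that of Trib3 was 4.23 ± 0.19 (SE; adjusted p = 2.09e-09 and 8.48e-11); for Nupr1, 2 WT set 3 libraries were at the lowest value, so the size is uncertain. Stc2, a secreted glycoprotein, rose by 5.70, asparagine synthetase Asns by 2.89, the glutathione-degrading enzyme Chac1 by 2.11, Ddit3 by 1.41 and Atf4 by 0.62. Of the enzymes of serine synthesis, Phgdh differed by -0.27 and passed, while Psat1 and Psph did not (0.05 and -0.15, adjusted p = 0.677 and 0.232). Shmt1 and Mthfd1, which act on folate in the cytosol, fell by 2.07 and 1.87, and the mitochondrial enzyme gene Mthfd2 averaged 12.23 in WT set 5 and 12.23 in WT set 3. Of 22 amino acid transporters 12 rose and 8 fell, from Slc7a3, a carrier of basic amino acids (3.54), to Slc43a1, a carrier of large neutral ones (-4.95).

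Most genes of lysosomes and of cholesterol synthesis rose. Of 37 genes of lysosomes and autophagy 27 rose and 5 fell, with a median of 0.81. Npc1, which exports cholesterol from lysosomes, stood at 10.21, 10.46 and 10.54 in WT set 5 libraries, against 8.71, 8.68 and 8.80 in WT set 3 libraries. All 3 WT set 5 values were higher, with a difference of 1.68 ± 0.12 (SE; adjusted p = 3.97e-09). Of 25 genes of cholesterol synthesis and uptake 17 rose and 1 fell (median 0.56). Ebp, a sterol isomerase of the pathway, rose by 1.01, and Idi1, an isomerase of an earlier step, was the member that fell (-0.47). The desaturase genes Scd1 and Fads2 rose by 3.24 and 3.23 among the 12 of 24 genes of fatty acid synthesis that rose, while 5 fell, Acaca, the enzyme that commits carbon to fatty acids, among them (-1.11). Of 9 genes of cholesterol efflux 4 rose, led by the exporter Abcg1 (2.02), and 1 fell (Apoe, -1.78). Of 19 genes of fatty acid oxidation 3 rose and 9 fell, with a median of -0.16. Cpt1a, its gatekeeper, went against that median, at 1.08. Of 29 genes of the unfolded protein response and secretion 20 rose and 2 fell (1 without WT set 3 replicate 1 or 2 or WT set 5 replicate 1 or 3), with Herpud1, which serves protein disposal from the endoplasmic reticulum, at 1.97.

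Interferon stimulated genes rose more often than they fell. Of 65 members 45 rose and 12 fell, with a median of 1.001. Among the members that rose were antiviral genes. Oas3, a sensor of double-stranded RNA, stood at 9.72, 9.93 and 10.03 in WT set 5 libraries, against 6.55, 6.61 and 7.32 in WT set 3 libraries. Isg15, a ubiquitin-like modifier, stood at 11.45, 11.55 and 11.58 in WT set 5 libraries, against 8.20, 8.51 and 9.59 in WT set 3 libraries. WT set 3 replicate 3 lay nearer to WT set 5 than its partners for both, and the differences were 3.07 ± 0.20 and 2.76 ± 0.30 (SE; adjusted p = 1.68e-09 and 5.98e-07). Isg20, an RNA exonuclease, differed by 4.14, Rsad2, the antiviral enzyme viperin, by 4.07, and Dhx58, a regulator of RNA sensing, by 2.96. Replicate 3 was the nearest WT set 3 library for 45 of the 65, and without it 46 rose and 11 fell.

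Among the members that fell were GTPases known as targets of interferon gamma, while other members of their family rose. Gbp5, a guanylate-binding protein that attacks vacuoles of microbes, stood at 9.62, 9.35 and 9.51 in WT set 5 libraries, against 12.74, 12.53 and 12.83 in WT set 3 libraries. Gbp2 stood at 12.93, 12.79 and 12.82 in WT set 5 libraries, against 14.41, 14.22 and 14.83 in WT set 3 libraries. All WT set 5 values were lower, with differences of -3.21 ± 0.12 for Gbp5 and -1.64 ± 0.19 for Gbp2 (SE; adjusted p = 1.91e-11 and 1.17e-06). The related GTPase genes Irgm2, Ifi47, Iigp1 and Irgm1 fell by 1.35, 1.26, 1.11 and 1.03, while Gbp7 and Gbp3 rose by 1.84 and 0.57. Several Gbp genes are close copies, so reads could be split between them. Irf7, an amplifier of the type I response, rose by 1.996.

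The Isg15 and Gbp5 promoters are shown as a member that rose and a member that fell. The windows lie at chr4:156200769-156201068 on the minus strand and chr3:142496684-142496983 on the plus strand (RefSeq, GRCm38.p6, 250 bases before to 50 after the start, each on its gene's strand, 5′ to 3′). Capitals mark matches to the core of the interferon-stimulated response element (GAAA, any 2 bases, GAAA), and to TTCNNNGAA, the palindrome of the gamma-activated site.
Isg15: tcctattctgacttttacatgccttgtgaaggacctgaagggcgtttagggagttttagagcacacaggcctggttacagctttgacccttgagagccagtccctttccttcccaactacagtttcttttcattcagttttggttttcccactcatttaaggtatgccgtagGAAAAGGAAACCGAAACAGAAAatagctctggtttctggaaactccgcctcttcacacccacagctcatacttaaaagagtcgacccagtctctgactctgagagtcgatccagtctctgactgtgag
Gbp5: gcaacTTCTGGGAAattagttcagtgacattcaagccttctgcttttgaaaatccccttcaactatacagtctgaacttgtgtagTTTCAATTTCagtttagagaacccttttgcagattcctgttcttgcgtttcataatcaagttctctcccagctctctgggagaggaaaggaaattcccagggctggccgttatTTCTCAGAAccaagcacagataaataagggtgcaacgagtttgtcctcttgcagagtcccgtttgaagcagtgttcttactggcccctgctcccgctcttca
Isg15 held 3 matches to the response element core, which overlap each other, and none to TTCNNNGAA. Gbp5 held 1 match to that core, on the opposite strand, and 2 to TTCNNNGAA, without overlap. The core stood in 52.4% of 42 windows of members that rose, in 90.9% of 11 windows of members that fell and in 3.44% of all windows. TTCNNNGAA stood in 14.3% of the windows of members that rose, 45.5% of those of members that fell and 8.3% of all windows. The difference between the members that rose and those that fell was not tested.

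Antigen presentation genes moved on both sides. Of 25 genes 11 rose and 8 fell. The class I genes H2-D1 and B2m rose by 0.79 and 0.67. Among class II genes H2-Ab1 stood at 10.45, 10.37 and 10.51 in WT set 5 libraries, against 7.16, 7.38 and 8.53 in WT set 3 libraries, whereas H2-Aa, its partner chain, stood at 1.10, 2.91 and 3.82 in WT set 5 libraries, against 6.85, 7.56 and 7.82 in WT set 3 libraries. H2-Ab1 was higher and H2-Aa lower in all 3 WT set 5 libraries, with differences of 2.75 ± 0.47 and -4.80 ± 0.71 (SE; adjusted p = 6.85e-05 and 1.69e-05). For H2-Aa, WT set 5 replicate 1 was at the lowest value, so the size is uncertain. H2-Eb1 and Cd74, the invariant chain, fell by 3.96 and 2.37. H2-Ab1, H2-Aa, H2-Eb1 and Cd74 are all on the list of dendritic cell markers. The list's summed level lay between 10.64 and 10.81 in WT set 5 and between 10.73 and 11.08 in WT set 3. In WT set 5 that sum rests mostly on H2-Ab1, the only marker of the 6 measured that rose, while 5 fell. Itgax, a defining marker, was at the floor in all 3 WT set 5 libraries. The part of these cells in these differences was not tested.

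Genes of the Th1 programme rose more often than they fell, while the gene of the signature cytokine did not pass the test and that of the master transcription factor fell. Of 26 genes of the Th1 programme 16 rose and 3 fell, with a median of 1.47; without WT set 3 replicate 3 the counts were 17 and 3, and the median 1.81. Without WT set 3 replicate 2 the number that fell was 5. Il18r1, a chain of the receptor for IL-18, stood at 12.68, 12.54 and 12.93 in WT set 5 libraries, against 6.77, 7.19 and 7.999 in WT set 3 libraries. Cxcr6, a homing receptor, stood at 12.53, 12.46 and 12.67 in WT set 5 libraries, against 7.43, 8.26 and 7.79 in WT set 3 libraries. Both were higher in every WT set 5 library, with differences of 5.40 ± 0.34 and 4.73 ± 0.29 (SE; adjusted p = 1.62e-09 and 1.24e-09). Il18rap, the second chain of that receptor, rose by 4.04, the homing receptors Ccr2 and Cxcr3 by 2.90 and 2.64, Ly6c2 by 4.05 and the transcriptional regulators Id2 and Bhlhe40 by 2.20 and 2.12. Ly6c2 and Ly6c1 are close copies and their values are uncertain.

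Ifng, which encodes interferon gamma, stood at 13.84, 13.86 and 13.80 in WT set 5 libraries, against 13.65, 13.96 and 13.63 in WT set 3 libraries. The values overlapped, and the difference was 0.08 ± 0.32 (SE; adjusted p = 0.829). Tbx21, which encodes T-bet, stood at 9.05, 9.32 and 9.05 in WT set 5 libraries, against 11.27, 11.12 and 11.04 in WT set 3 libraries. Every WT set 5 value was lower, with means of 9.14 in WT set 5 and 11.14 in WT set 3 (SE of the difference 0.15, adjusted p = 1.13e-08). The chains of the interferon gamma receptor moved apart: Ifngr1 stood at 12.61, 12.51 and 12.98 in WT set 5 libraries, against 9.95, 10.35 and 10.69 in WT set 3 libraries, and Ifngr2 at 4.58, 6.37 and 5.02 in WT set 5 libraries, against 9.34, 8.82 and 8.85 in WT set 3 libraries. Ifngr1 was higher and Ifngr2 lower in WT set 5 without overlap, with differences of 2.37 ± 0.20 and -3.68 ± 0.41 (SE; adjusted p = 3.44e-08 and 7.55e-07). Of the IL-12 receptor chains, Il12rb1 fell by 0.77 and Il12rb2 stood at 11.28, 11.36 and 11.43 in WT set 5 libraries, against 11.07, 11.10 and 12.21 in WT set 3 libraries, with WT set 3 replicate 3 above all others and no passed difference (adjusted p = 0.760). Stat4, which carries the IL-12 signal, rose by 0.63, and Eomes, a relative of T-bet, did not pass (-0.73, adjusted p = 0.127).

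Cytokine genes moved both ways. Of 30 cytokine genes 14 fell and 8 rose. Il2, the growth factor of activated T cells, stood at 3.69, 2.45 and 1.03 in WT set 5 libraries, against 10.44, 10.43 and 9.71 in WT set 3 libraries, and Il21 at 5.39, 6.15 and 5.68 in WT set 5 libraries, against 10.004, 11.24 and 11.21 in WT set 3 libraries. Il2 was near or at the lowest value in WT set 5, and the differences were -7.80 ± 0.75 and -5.08 ± 0.44 (SE; adjusted p = 1.50e-07 and 5.07e-08). Il22 fell by 6.15, Il5 by 3.15 and Tnfsf14 by 2.89, while Il9 and Il17a were at the floor in all 3 WT set 5 libraries, against 6.70, 8.86 and 6.49 for Il9 and 5.03, 7.15 and 5.60 for Il17a in WT set 3 libraries. Il10, an anti-inflammatory cytokine that Th1 cells can make, stood at 10.12, 11.05 and 10.79 in WT set 5 libraries, against 6.26, 7.61 and 7.59 in WT set 3 libraries. It was higher in all 3 WT set 5 libraries, with a difference of 3.50 ± 0.47 (SE; adjusted p = 6.06e-06), and Ltb, Tgfb1 and Tnf rose by 1.91, 0.72 and 0.96. Il4, the Th2 cytokine that the culture's antibody blocks, stood at 8.99, 8.79 and 8.69 in WT set 5 libraries, against 6.78, 7.06 and 4.80 in WT set 3 libraries, and rose by 2.61 (adjusted p = 9.96e-05).

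Most chemokine genes fell and 2 rose. Of 14 measured 10 fell and 2 rose, with a median of -3.26, or -1.88 over the members that were above the lowest value in both sets. Xcl1, which draws cross-presenting dendritic cells, stood at 3.12, 4.31 and 2.93 in WT set 5 libraries, against 9.97, 10.87 and 9.38 in WT set 3 libraries. Ccl22, a ligand of CCR4, was at the floor in all 3 WT set 5 libraries, against 7.83, 9.23 and 8.18 in WT set 3 libraries, and Ccl20 was likewise at the lowest value, against 5.72, 6.80 and 5.26. Ccl3 and Ccl4, inflammatory chemokines, fell by 2.03 and 1.73, and Cxcl9 by 3.48. The members that rose were Ccl5 at 9.45, 9.66 and 9.76 in WT set 5 libraries, against 8.21, 8.55 and 8.37 in WT set 3 libraries, and Cxcl10 at 10.48, 10.36 and 10.22 in WT set 5 libraries, against 8.70, 8.94 and 8.76 in WT set 3 libraries. Both were higher in every WT set 5 library, with differences of 1.25 ± 0.29 and 1.55 ± 0.35 (SE; adjusted p = 0.00126 and 0.000868). NK cells also make Xcl1, Ccl3 and Ccl4, and the NK marker levels above fell with them; their part was not tested.

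Cytotoxic molecules changed in part. Of 24 genes 8 rose (5 without WT set 5 replicate 2), 4 fell and 12 did not pass. The share that passed was 50%, against 67.6% of all genes. Gzmb, the serine protease granzyme B, stood at 17.02, 17.46 and 17.44 in WT set 5 libraries, against 13.19, 13.81 and 13.81 in WT set 3 libraries. The groups were apart by 3.70 ± 0.26 (SE; adjusted p = 5.03e-09). Ctsw, a cysteine protease of cytotoxic cells, rose by 3.45, Nkg7, a granule membrane protein, by 2.21 and Unc13d, which primes granules for release, by 0.97. Prf1, which encodes perforin, stood at 7.08, 7.91 and 8.01 in WT set 5 libraries, against 7.71, 8.19 and 8.47 in WT set 3 libraries, and did not pass (-0.46, adjusted p = 0.182). Serpinb9 and Serpinb6b, inhibitors that shield cells from their own proteases, fell by 1.65 and 2.11, and the receptor gene Klrk1, also expressed by NK cells, by 2.04.

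**Figure D4:**
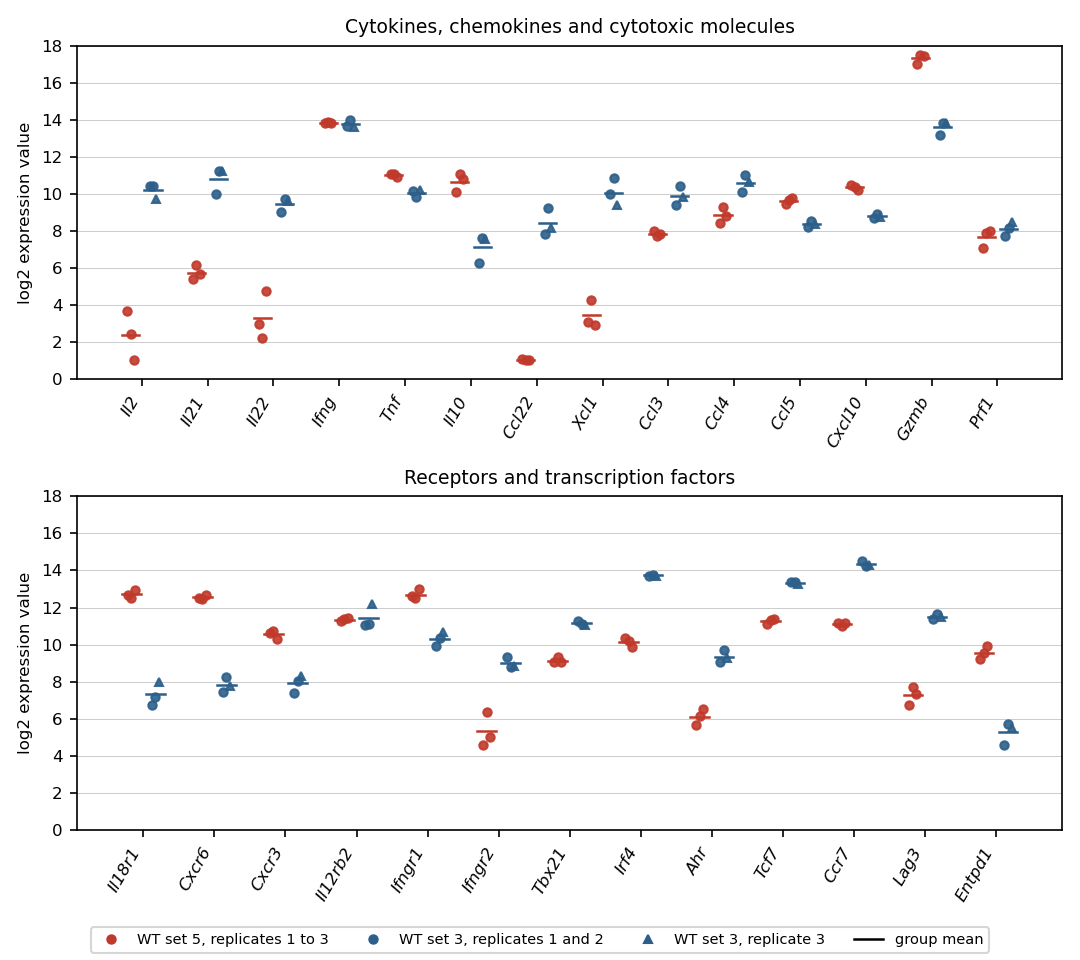
Log2 expression values of cytokine, chemokine and cytotoxic genes (top) and of receptor and transcription factor genes (bottom) in each library, with WT set 5 in red on the left of each gene and WT set 3 in blue on the right; bars are group means, and the triangle is WT set 3 replicate 3. Il2, Il21, Il22 and Xcl1 lie lower in WT set 5, Ifng overlaps between the sets, and Il18r1, Cxcr6 and Gzmb lie higher in WT set 5.

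Homing and adhesion genes moved both ways. Of 21 chemokine and lipid homing receptors 9 rose and 8 fell. Ccr7, which guides cells into lymph nodes, stood at 11.16, 11.01 and 11.15 in WT set 5 libraries, against 14.50, 14.23 and 14.30 in WT set 3 libraries, and Cxcr5, which guides them to B cell follicles, at 2.42, 2.09 and 2.05 in WT set 5 libraries, against 7.21, 7.91 and 7.29 in WT set 3 libraries. These fell without overlap, by 3.24 ± 0.15 and 5.28 ± 0.61 (SE; adjusted p = 1.16e-10 and 1.27e-06), and Ccr6 fell by 3.51. Ltb4r1, the leukotriene B4 receptor, rose by 4.41, S1pr4 by 2.67 and Cxcr4 by 2.55. Of 29 adhesion genes 16 rose and 7 fell. Fut7, the fucosyltransferase that builds selectin ligands, stood at 10.63, 10.997 and 10.86 in WT set 5 libraries, against 5.22, 5.24 and 5.34 in WT set 3 libraries. With a difference of 5.56 ± 0.30 (SE; adjusted p = 4.20e-10) it led the list, and Gcnt1, which acts in the same pathway, and Selplg, the protein that carries the ligand, rose by 3.99 and 1.91. The integrin genes Itgb3 and Itga2 rose by 3.77 and 3.26, and Itga4 fell by 2.23. Itgb8 was at the floor in all 3 WT set 5 libraries, against 5.43, 5.78 and 5.33 in WT set 3 libraries.

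Transcription factors of lineage and effector fate moved both ways. Of 37 lineage and effector factors 18 fell and 9 rose (5 without WT set 3 replicate 1), against 38.3% lower and 29.3% higher of all genes, with a median of -0.65. Irf4, which scales with the strength of T cell receptor signalling, stood at 10.35, 10.20 and 9.90 in WT set 5 libraries, against 13.73, 13.76 and 13.72 in WT set 3 libraries, and the aryl hydrocarbon receptor Ahr at 5.65, 6.14 and 6.52 in WT set 5 libraries, against 9.05, 9.73 and 9.28 in WT set 3 libraries. Both were lower in all 3 WT set 5 libraries, with differences of -3.59 ± 0.10 and -3.25 ± 0.25 (SE; adjusted p = 2.74e-12 and 1.37e-08). Batf, Batf3 and Ikzf3 fell by 1.19, 1.88 and 2.42. Prdm1, which encodes the repressor Blimp-1, rose by 1.199, Maf by 1.63 and Zbtb7b, the factor of CD4 identity, by 1.503.

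Genes of other helper lineages moved both ways. Of 15 follicular helper genes 10 fell and 1 rose, of 18 Th17 genes 10 fell and 4 rose, of 15 regulatory T cell genes 8 fell and 5 rose, and of 18 Th2 genes 8 fell (5 without WT set 3 replicate 2) and 6 rose. The regulatory T cell factor Foxp3 fell by 2.06 and the Th2 factor Gata3 by 0.82. Bcl6, the follicular helper factor, did not pass (-0.65, adjusted p = 0.138). Of 21 inhibitory receptors and exhaustion genes 13 fell and 6 rose. Lag3, a receptor for class II molecules, stood at 6.75, 7.71 and 7.32 in WT set 5 libraries, against 11.39, 11.63 and 11.50 in WT set 3 libraries, and Entpd1, the ectoenzyme CD39, at 9.21, 9.53 and 9.94 in WT set 5 libraries, against 4.59, 5.73 and 5.49 in WT set 3 libraries. Lag3 was lower and Entpd1 higher in WT set 5 without overlap, with differences of -4.25 ± 0.31 and 4.29 ± 0.25 (SE; adjusted p = 5.90e-09 and 7.15e-10). Btla, Ctla4 and Tox fell by 2.81, 1.28 and 2.36, and Vsir and Lair1 rose by 2.28 and 2.48. Pdcd1, which encodes PD-1, did not pass (-0.41, adjusted p = 0.133), but differed by -0.65 without WT set 3 replicate 3 (adjusted p = 0.0215).

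Naive genes split. Of 32 genes of naive or quiescent T cells 12 rose and 10 fell, and without WT set 3 replicate 3 the counts were 14 and 8. Tcf7, which encodes TCF-1, a factor of naive and memory cells, stood at 11.13, 11.33 and 11.40 in WT set 5 libraries, against 13.38, 13.36 and 13.29 in WT set 3 libraries, lower by 2.06 in WT set 5 (adjusted p = 2.59e-08). Il7r, the receptor for the survival cytokine IL-7, rose by 1.41, and the antiproliferative genes Tob1 and Btg1 by 2.25 and 1.01.

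Genes that respond within minutes to stimulation rose more often than they fell. Of 23 immediate early transcription factors 14 rose and 5 fell, with a median of 0.76. Fos stood at 11.98, 11.75 and 11.59 in WT set 5 libraries, against 8.04, 7.65 and 8.35 in WT set 3 libraries, and Nr4a3, an orphan nuclear receptor induced by T cell receptor signals, at 6.27, 6.21 and 6.65 in WT set 5 libraries, against 11.43, 10.88 and 10.88 in WT set 3 libraries. Fos was higher and Nr4a3 lower in every WT set 5 library, with differences of 3.76 ± 0.16 and -4.68 ± 0.38 (SE; adjusted p = 5.55e-11 and 1.91e-08). Jun and Egr1 rose by 2.30 and 2.58, and Egr2 and Egr3, induced through calcium and NFAT, fell by 1.95 and 1.41. Of 15 feedback genes of the MAP kinase pathway 4 rose and 7 fell, with Dusp1 and Dusp6 at 3.14 and 2.88 and Dusp4 and Spry2 at -2.14 and -2.27. Of 24 NF-kB subunits and targets 9 rose and 11 fell, with the feedback genes Tnfaip3 and Nfkbia at 1.16 and 0.87 and the subunit genes Relb and Nfkb2 at -1.18 and -1.05.

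Parts of the T cell receptor pathway rose. Of 39 genes 20 rose and 7 fell. Cd3g stood at 13.98, 13.96 and 14.04 in WT set 5 libraries, against 12.69, 12.48 and 12.67 in WT set 3 libraries, and the subunit genes Cd3d and Cd3e rose by 1.30 and 0.65. The groups of Cd3g were tight and apart by 1.38 ± 0.07 (SE; adjusted p = 3.33e-10). Cblb, a ubiquitin ligase that restrains activation, stood at 9.75, 9.90 and 9.87 in WT set 5 libraries, against 11.78, 11.61 and 11.88 in WT set 3 libraries, lower by 1.92 in WT set 5. Of 17 activation markers 7 rose and 9 fell, with Il2ra, the high-affinity chain of the IL-2 receptor, at 0.46, and Cd69 at 0.64; Cd44 did not pass (-0.31, adjusted p = 0.233). Of 32 interleukin receptors 15 rose and 11 fell (7 without WT set 3 replicate 2 or without WT set 5 replicate 3), of 24 JAK, STAT and SOCS genes 6 rose and 9 fell (Socs2 2.65, Stat5a -2.43), and of 22 TNF receptor family and costimulation genes 7 rose and 10 fell (Tnfrsf9 1.34, Tnfrsf4 -1.41).

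Survival genes moved on both sides. Of 27 genes of the BCL2 family and death receptors 10 rose and 7 fell, and of 27 p53 targets 14 rose and 5 fell (2 without WT set 3 replicate 1, and 3 without WT set 5 replicate 1 or 2). Bcl2, the survival factor sustained by IL-7, stood at 11.97, 12.17 and 12.15 in WT set 5 libraries, against 10.41, 10.51 and 11.42 in WT set 3 libraries, higher by 1.32 in WT set 5, while Bcl2l1, which encodes Bcl-xL and follows CD28 signals, stood at 10.60, 10.69 and 10.60 in WT set 5 libraries, against 12.08, 11.97 and 11.56 in WT set 3 libraries, lower by 1.24. The p53 targets Bbc3 and Pmaip1, which promote death, rose by 2.30 and 2.32, and Mdm2, which degrades p53, by 0.83. Bcl2a1b and Bcl2a1d fell by 4.18 and 4.54; they are near-identical copies and their values are uncertain. Of 38 chromatin enzymes 10 rose and 18 fell, with a median of -0.24 and the highest difference at Tet2 (1.44). Of 8 Gimap GTPases 2 rose (1 without WT set 3 replicate 1 or 2 or WT set 5 replicate 2 or 3) and 4 fell (2 without WT set 3 replicate 3 or without WT set 5 replicate 1).

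The largest single rises were spread over many functions. The pigment signalling gene a (agouti) stood at 10.81, 11.08 and 11.14 in WT set 5 libraries and was at the floor in all 3 WT set 3 libraries. Lgals3, the lectin galectin-3, stood at 14.12, 14.05 and 14.48 in WT set 5 libraries, against 6.61, 7.33 and 7.08 in WT set 3 libraries, and S100a6, a calcium-binding protein, at 14.22, 14.34 and 14.50 in WT set 5 libraries, against 6.93, 8.34 and 7.65 in WT set 3 libraries. All WT set 5 values lay clear above WT set 3, with differences of 7.21 ± 0.66 and 6.71 ± 0.32 (SE; adjusted p = 8.42e-08 and 1.26e-10). Sparc, a matrix protein, rose by 7.66, the chemokine receptor gene Cxcr1 by 7.08, the matricellular gene Ccn3 by 6.93, the glycogen phosphorylase gene Pygl by 6.405, the actin regulator Enah by 6.396 and the protease inhibitor gene Slpi by 6.35. Pigz, Pilrb1, P2rx3 and Serpinb5 complete the 15 with Nupr1 and Cdkn2a, at 7.66, 6.96, 6.55 and 6.38. Pigz, Sparc, Pilrb1 and Ccn3 had at least 1 WT set 3 library at the lowest value, so their sizes are uncertain.

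The largest falls included activation genes. Cd200, a ligand that restrains myeloid cells, stood at 6.72, 6.25 and 6.47 in WT set 5 libraries, against 13.59, 13.57 and 13.08 in WT set 3 libraries, and Cd83, an activation marker, at 2.13, 1.03 and 2.97 in WT set 5 libraries, against 9.44, 9.48 and 8.96 in WT set 3 libraries. Neither overlapped, with differences of -6.94 ± 0.37 and -7.25 ± 0.57 (SE; adjusted p = 3.84e-10 and 1.51e-08). For Cd83, WT set 5 replicate 2 was at the lowest value, so the size is uncertain. Lad1 fell by 8.06, the urokinase receptor gene Plaur by 7.75, the alkaline phosphatase gene Alpl by 6.17, the NF-kB inhibitor gene Tnip3 by 6.09, the enkephalin precursor gene Penk by 6.09 and Tmem35a by 6.08; Il2, Xcl1, Il22, Ccl22 and Il9 were given above. Exosc6, a subunit of the RNA exosome, was at the floor in all 3 WT set 5 libraries, against 9.06, 9.43 and 9.25 in WT set 3 libraries, with means of 1.02 in WT set 6, 1.04 in KO set 5 and 9.16 in KO set 3. It was lower in set 5 than in set 3 in both genotypes; the gene overlaps another locus in the GENCODE annotation used here for names, so its value is uncertain. The table also holds 2 entries named Nnt, and the one among the 15 largest falls (ENSMUSG00000116207) was at the floor in all 3 WT set 5 libraries, against 7.93, 6.61 and 8.17 in WT set 3 libraries; reads could be split between the entries.

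KO cells gave a comparison with no shared libraries. Between sets 5 and 3 of Id3-KO cells, 9180 genes passed (73.2%), 6248 (49.8%) higher and 2932 (23.4%) lower. Of the WT calls, 67.8% passed in the same direction in KO cells, and of the KO calls 62.6% did so in WT cells. The difference between the 2 changes passed for 6276 genes (50%), 856 (6.82%) with the signed WT change above the KO change and 5420 (43.2%) with it below. A WT change above the KO change is a greater rise, a smaller fall, or a rise against a fall. The median of the KO libraries was higher in set 5 (9.57) than in set 3 (9.18), and the median of this difference was -0.42. With each library centred on its median, 4659 genes passed (37.1%), 2316 (18.5%) above and 2343 (18.7%) below.

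The lists kept to one side of this comparison on both scales in several cases. The signed change of mitosis genes was higher in WT cells for 39 of 50 members as deposited and 50 after centring, and lower for none; the list's median difference was 2.55 in WT cells and 1.63 in KO cells. Cholesterol synthesis genes were 17 of 25 higher in WT as deposited and 21 after centring, with medians of 0.56 in WT and -0.19 in KO cells; the WT change was lower for 1 as deposited and for none after centring. Interferon stimulated genes mostly went the other way: the WT change was lower for 36 of 65 and higher for 2 as deposited, lower for 24 and higher for 6 after centring, and medians were 1.001 in WT and 1.92 in KO cells. T cell receptor signalling genes had a lower WT change for 33 of 39 as deposited and 18 after centring, and a higher one for 1 on either scale. For the ribosome biogenesis list the medians were -1.58 in WT and -1.47 in KO cells, and 3 of 54 had a higher and 7 a lower WT change as deposited, against 18 and 1 after centring.

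The genes with the greatest differences between the genotypes included ones that moved in opposite directions. Ubd, a ubiquitin-like protein induced by inflammatory cytokines, stood at 9.43, 8.51 and 9.04 in WT set 5 libraries, against 4.01, 4.71 and 5.16 in WT set 3 libraries; in KO cells it stood at 2.50, 5.52 and 3.77 in set 5, against 8.38, 6.95 and 7.34 in set 3. It was higher in WT set 5 than in WT set 3 and lower in KO set 5 than in KO set 3, without overlap, and the WT change exceeded the KO change by 7.996 ± 0.96 (SE; adjusted p = 8.09e-06, and 2.84e-05 after centring). Wls, which carries Wnt proteins to the surface, stood at 4.76, 5.51 and 5.89 in WT set 5 libraries, against 6.75, 7.09 and 7.04 in WT set 3 libraries; in KO cells it stood at 10.02, 9.90 and 10.11 in set 5, against 7.03, 6.61 and 6.97 in set 3. Its WT change minus its KO change was -4.71 ± 0.33 (SE; adjusted p = 3.51e-07, and 5.85e-06 after centring). Cdkn2a rose in both genotypes, with KO values of 8.74, 8.83 and 8.75 in set 5, against 7.17, 5.77 and 5.83 in set 3, and the WT rise was greater by 4.85 ± 0.62 (SE; adjusted p = 1.37e-05). The greater WT rise goes with lower WT set 3 values and, to a smaller extent, with higher WT set 5 values. WT set 3 replicate 1 was at the lowest value, so the size of this difference is uncertain. Of the 15 largest rises in WT cells, 11 differed from the KO change on both scales in the same direction. Of the 15 largest falls 2 did, Cd83 and Penk, and of all 12547 genes 3199 did. These rises and falls were chosen by their WT change, which is part of the tested difference, so their counts are a description only.

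**Figure D5:**
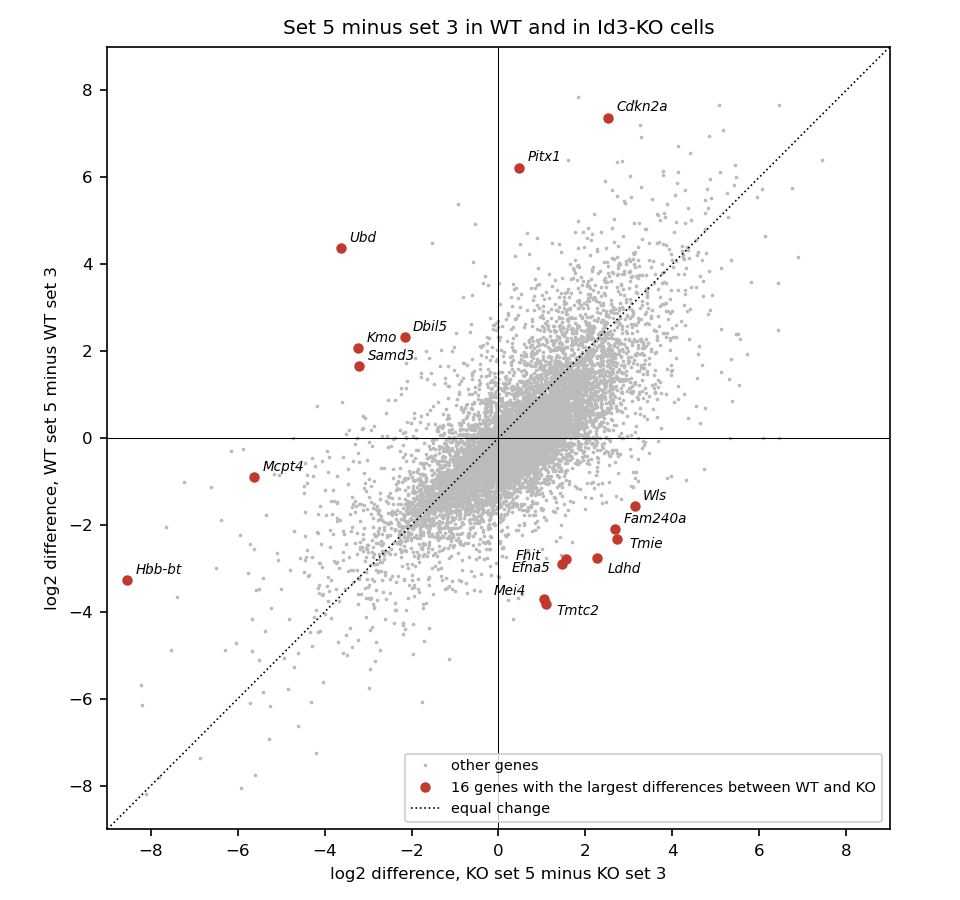
Log2 difference between sets 5 and 3 in WT cells (vertical) and in Id3-KO cells (horizontal) for the genes of the table. Repeat entries of a symbol are left out, and points beyond the axes, that of a (agouti) among them, are not shown. The dotted line marks equal change, and red points are the 16 genes with the largest differences between the genotypes under the naming rule. Ubd lies at 4.37 in WT and -3.63 in KO cells, and Wls at -1.57 in WT and 3.14 in KO cells.

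WT set 6 carries the same number in the contrast names as set 5. WT set 6 against WT set 3, which shares the set 3 libraries with the main comparison, gave 8496 genes (67.7%), 4090 (32.6%) higher and 4406 (35.1%) lower. WT set 6 against WT set 5 gave 423 genes (3.37%), 378 (3.01%) higher and 45 (0.359%) lower in set 6. The split depended on scaling: 187 were higher and 71 lower with each library centred on its median, and 163 higher and 63 lower after quantile normalization. No mitosis gene was higher and 1 lower in that comparison, and Ccnb2 averaged 12.16 in WT set 6 and 12.29 in WT set 5. Among 30 cytokine genes 9 were higher in set 6 and none lower. Ifng averaged 14.66 in WT set 6, 13.83 in WT set 5 and 13.75 in WT set 3, and Cxcr6 averaged 13.55 in WT set 6, 12.55 in WT set 5 and 7.83 in WT set 3. Leaving out 1 library moved the count between sets 6 and 5 by more than 1.5 times: it was 129, 238 and 217 without replicate 1, 2 or 3 of WT set 5, and 118 and 113 without replicate 2 or 3 of WT set 6.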

How the data were processed

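The 18 libraries were grouped by genotype and set number as the labels give them, and each column of the expression table was tied to its library by name, with 0 columns left unused. Per the labels' protocols, RNeasy columns gave the RNA, which was selected by its poly(A) tail and made into libraries with the NEBNext Ultra II Directional kit. Salmon 1.9.0, edgeR, limma and the build GRCm39 are named in the submitters' processing notes, without their roles. The authors deposited log2 expression values per gene, scaled in a way not given in the sources used here, so depth is unknown and no count test was run. The authors' deposited table of contrasts, with log2 fold changes, a test score and p-values, holds no WT set 5 against WT set 3 contrast; from it only the contrast names were used.

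limma 3.58.1 in R 4.3.3 fitted 1 mean per set and genotype over all 18 libraries, with a variance trend (12 residual degrees of freedom), and p-values were adjusted by Benjamini-Hochberg over the 12547 genes. Genes needed a log2 value of at least 0 in 3 libraries, which every gene met. The fit was tested on simulated data. No set test was run: 54 gene lists and 10 marker lists with 1500 distinct measured members are described by counts and medians. Members and lists were chosen with earlier results of these data known. Genes were named by rule (the 15 largest called rises and falls without overlap between the sets and with a mean of at least 2 in the higher set, the 8 largest differences between genotypes in each direction by the same conditions, and the 3 smallest adjusted p per list and direction), or as members beside their list's count; some genes that the rule names are not reported here. 9 symbols occur more than once. Replicate numbers were not used as pairs, because no label says what libraries with equal numbers share. Libraries of WT sets 5 and 3 with equal numbers deviated together with correlations under 0.1. Promoter windows were RefSeq sequences matched by symbol and searched on both strands, and figures were drawn with matplotlib 3.10.9. Alternatives covered thresholds, scaling, moderation, weights, filters, the samples in the fit, a replicate block and leaving out each library. Those for WT set 6, and list counts without WT set 3 replicate 3, were added after seeing the data.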

Additional observations from a re-analysis of the deposited data

Results flagged for a closer look

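The change between sets 5 and 3 differed between WT and Id3-KO cells by limma's test of the difference itself (Benjamini-Hochberg adjusted p over all genes) for 6276 genes as deposited and 4659 after centring each library on its median. In the first case 13.6% of these genes had a signed WT change above the KO change (a greater rise, a smaller fall, or a rise against a fall) and in the second 49.7%, and 3199 genes passed on both scales in the same direction. Among the 1500 distinct measured members of the gene and marker lists 458 did so, against 3199 of all 12547 genes. The 15 largest rises and 15 largest falls in WT cells were chosen by their WT change, which is part of the tested difference. Among them 13 passed on both scales in the same direction. These were a, Nupr1, Cdkn2a, Lgals3, Pilrb1, Ccn3, S100a6, P2rx3, Pygl, Serpinb5 and Slpi among the rises, and Cd83 and Penk among the falls.

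The WT change minus the KO change was greatest for Ubd at 7.996, Pitx1 at 5.75, Kmo at 5.30, Hbb-bt at 5.26, Samd3 at 4.85, Cdkn2a at 4.85, Mcpt4 at 4.72 and Dbil5 at 4.48 on the log2 scale, under the naming rule. Several of these rest on libraries at the lowest value. Pitx1 stood at 7.83, 7.24 and 6.78 in WT set 5 and 1.33, 2.08 and 1.09 in KO set 5, against the floor in all 3 libraries of WT set 3 and of KO set 3. Hbb-bt, a haemoglobin gene, stood at 2.66, 4.02 and 1.03 in WT set 5, against 5.06, 5.64 and 6.84 in WT set 3, and was at the floor in all KO set 5 libraries, against 10.53, 9.23 and 8.97 in KO set 3. Mcpt4, a mast cell protease gene, was at the floor in all libraries of WT set 5 and KO set 5, against 1.11, 1.93 and 2.83 in WT set 3 and 5.86, 7.19 and 6.94 in KO set 3. For these 3 genes the fitted number is not a measured fold. For Dbil5, 2 KO set 5 libraries were at the lowest value, so the size of its difference is uncertain. The same holds for Cdkn2a, where WT set 3 replicate 1 was at the lowest value. Kmo, an enzyme of tryptophan breakdown, averaged 4.87 in WT set 5 and 2.80 in WT set 3, and 2.05 in KO set 5 and 5.28 in KO set 3.

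The WT change minus the KO change was lowest for Tmie at -5.05, Ldhd at -5.03, Tmtc2 at -4.92, Fam240a at -4.79, Mei4 at -4.75, Wls at -4.71, Fhit at -4.36 and Efna5 at -4.33. Mei4 was at the floor in all WT set 5 libraries, against 5.20, 4.49 and 4.61 in WT set 3 libraries. Its fitted number is likewise not a measured fold. Ldhd, a lactate dehydrogenase of the D form, averaged 3.78 in WT set 5 and 6.54 in WT set 3, and 7.94 in KO set 5 and 5.67 in KO set 3. The adjusted p of these 16 genes lay under the threshold on both scales. All groups here have 3 libraries, too few for the outlier test, which was not run.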

How the results depend on the processing

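With a log2 difference of at least 1 asked for besides the adjusted p, 3785 genes and 589 list members passed between WT sets 5 and 3, against 8479 and 1190 as reported. Under every other alternative run these counts and those of the genotype and WT set 6 against set 3 comparisons stayed within 1.5 times; leaving out 1 library gave 7876 to 8186 genes for WT set 5 against set 3 and 1110 to 1158 list members. WT set 6 against set 5 (423 genes) was the exception: 258 under median centring, 226 under quantile normalization, 87 against a minimum fold of 1.2, 740 with the replicate block and 113 to 385 with 1 library left out; the cause was not tested. No gene examined reversed. The genes examined were 406, and not all 1500 distinct list members. Of their values under these alternatives, 8264 kept their call, 193 lost it (87 under the log2 difference of 1) and 20 gained it. 73 counts of called members per list and setting moved by over 1.5 times and 1271 did not. With the replicate number as a block within genotype 8742 genes passed, and 8480 in WT sets 3 and 5 alone; equal numbers deviated together only weakly (r = 0.0737, 0.0694 and 0.0739, against -0.0494 to -0.0299 for unequal ones), so each library correlated best with its own number, a hint from the data and not the design. Depth is unknown, so no limit of detection can be given for genes at the lowest value.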

Other observations

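The following genes were at the lowest value in every set 5 library of both genotypes and above a log2 value of 5 in every set 3 library: Ccl20, Ncr1 and Exosc6. They were listed after their values were seen. Ccl20, a chemokine gene of Th17 and epithelial cells, averaged 1.06 in WT set 5 and 5.93 in WT set 3, and 1.04 in KO set 5 and 7.32 in KO set 3. In WT set 6 it averaged 1.96. Ncr1, an NK cell receptor gene, averaged 1.06 in WT set 5 and 6.17 in WT set 3, and 1.04 in KO set 5 and 6.55 in KO set 3. Exosc6 averaged 1.02 in WT set 6.

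Among genes called in both genotypes, 935 moved in opposite directions between sets 5 and 3 and 5749 in the same direction, on the deposited scale, where the median change was -0.12 in WT cells and 0.38 in KO cells. Class II genes gave an example of a changed level at set 3: H2-Ab1 averaged 10.44 in WT set 5 and 7.69 in WT set 3, and 9.89 in KO set 5 and 10.09 in KO set 3. Its WT change minus its KO change was 2.96 ± 0.66 (SE; limma, adjusted p = 0.00147).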
